A study of Mus musculus with 3 samples.

Results

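The transcribed loci that carried no gene name in the RNA-seq event lists of mouse embryonic stem (ES) cells were examined. A locus is a group of overlapping assembled transcripts, and it was a member when the column for the reference gene held no name. Of 27425 loci in wildtype cells 202 were unnamed (0.737%), of 27403 in Pcgf1KO cells 168 (0.613%) and of 27460 in Pcgf1KO+Pcgf1_flag cells 245 (0.892%). These 615 loci of 82288 in all were joined into 362 regions where they overlapped on the same chromosome and strand. All 3 samples were C57BL/6 ES cells grown on mitomycin-C inactivated mouse embryonic fibroblasts in serum with leukemia inhibitory factor, with 1 library of each genotype. Wildtype cells carried no edit, Pcgf1KO cells came from a puromycin-selected colony in which Cas9 and a pair of sgRNAs had cut Pcgf1 in exon 2 and exon 3, and Pcgf1KO+Pcgf1_flag cells (rescued cells) were the knockout cells with a lentiviral FLAG-tagged Pcgf1. No genotype had a replicate, so no p-value or SD is given, and a value was called higher or lower when FPKM plus 0.1 differed by more than 2-fold. FPKM is the number of sequenced fragments per kilobase of transcript, scaled to the mapped fragments of the library. Library depth is unknown because the lists hold no counts.

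Transcript assemblers such as Cufflinks build transcripts from spliced reads and then look for a reference gene that matches. A locus is left without a name when no match is made, so that long noncoding RNAs, antisense transcripts, pseudogenes, transcripts of repeats and fragments of known genes can all be found in this class. Pcgf1 is the core subunit of PRC1.1, a variant Polycomb complex that holds Ring1B, Rybp, Bcor and Kdm2b, is brought to unmethylated CpG islands by Kdm2b and places ubiquitin on histone H2A at lysine 119. In ES cells such complexes are known at the promoters of developmental genes and of some noncoding genes.

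For regions whose assembled first exon began in a RefSeq promoter window, the promoter shows what kind of start is behind the values. The 250 bases before the annotated start are given 5′ to 3′ on the strand of the gene for 5 of them (RefSeq, build GRCm38.p6), with each CpG in capitals. Nt5dc2 (chr14:31130839-31131088, plus strand) and Tfdp1 (chr8:13338501-13338750, plus strand) belong to 2 of the highest regions. By their last exons both stayed within 2-fold in all 3 samples. By contrast, the first exons of Tfdp1 were at 99.6 FPKM in wildtype, 16.9 in Pcgf1KO and 96.5 in rescued cells. Gm40003 (chr2:170673839-170674088, minus strand) belongs to the region with the largest decrease in Pcgf1KO cells in FPKM as deposited. Exoc3l2 (chr7:19463037-19463286, plus strand) and Gm32885 (chr15:97167245-97167494, minus strand) belong to regions that were higher in Pcgf1KO cells. Exoc3l2, however, stayed within 2-fold at the first exon that ends at 19463353. In every sample a first exon of Tfdp1, Exoc3l2 and Gm32885 began inside the stretch, so part of it is assembled exon.
Nt5dc2: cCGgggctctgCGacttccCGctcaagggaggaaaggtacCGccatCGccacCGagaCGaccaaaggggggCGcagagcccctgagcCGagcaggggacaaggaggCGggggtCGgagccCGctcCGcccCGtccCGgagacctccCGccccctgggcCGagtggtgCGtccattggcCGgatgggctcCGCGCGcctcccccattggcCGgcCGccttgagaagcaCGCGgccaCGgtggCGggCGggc
Tfdp1: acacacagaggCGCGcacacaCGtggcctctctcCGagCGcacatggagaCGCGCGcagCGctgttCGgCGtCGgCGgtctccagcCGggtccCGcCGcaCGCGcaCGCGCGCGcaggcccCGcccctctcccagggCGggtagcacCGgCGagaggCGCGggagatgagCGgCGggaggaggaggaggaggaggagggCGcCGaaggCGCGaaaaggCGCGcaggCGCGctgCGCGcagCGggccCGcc
Gm40003: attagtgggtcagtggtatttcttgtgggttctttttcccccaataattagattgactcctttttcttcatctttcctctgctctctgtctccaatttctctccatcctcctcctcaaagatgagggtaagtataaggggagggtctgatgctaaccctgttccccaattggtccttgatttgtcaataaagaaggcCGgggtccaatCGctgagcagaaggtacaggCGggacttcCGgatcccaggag
Exoc3l2: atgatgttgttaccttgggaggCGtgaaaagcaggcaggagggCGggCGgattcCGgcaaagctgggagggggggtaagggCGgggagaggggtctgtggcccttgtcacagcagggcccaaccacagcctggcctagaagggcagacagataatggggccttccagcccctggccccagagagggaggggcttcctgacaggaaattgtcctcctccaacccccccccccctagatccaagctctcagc
Gm32885: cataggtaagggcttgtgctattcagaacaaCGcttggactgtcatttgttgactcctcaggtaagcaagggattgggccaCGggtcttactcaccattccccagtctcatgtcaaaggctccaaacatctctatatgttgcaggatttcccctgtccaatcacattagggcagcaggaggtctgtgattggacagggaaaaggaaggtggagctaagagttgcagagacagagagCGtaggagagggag
The stretches of Nt5dc2 and Tfdp1 hold 29 and 42 CpG, against 4 for Gm40003, 5 for Exoc3l2 and 3 for Gm32885. These 5 do not stand for all regions, whose counts follow.

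In all, 64 of the 362 regions began in a RefSeq promoter window, which spans 250 bases before and 50 after the start. By the usual limits for a CpG island (GC content over 50% and an observed to expected CpG ratio over 0.6), 18 of the 64 windows were island-like (28.1%), against 33.3% of all 32851 RefSeq promoters. Among the 29 windows of regions in all 3 samples, 23 belonged to regions within 2-fold between Pcgf1KO and wildtype cells. Of these 23, 8 were island-like, and they held 0 to 56 CpG. Of the 6 that belonged to called regions, 0 were island-like, and they held 3 to 9 CpG. These calls are of whole regions and do not always hold at the start in the window. In the windows of Exoc3l2, Gm9631 and Zfp53 the first exon stayed within 2-fold between wildtype and Pcgf1KO cells. Tfdp1, island-like and within 2-fold as a region, was at 77.0 and 16.9 FPKM at the first exon that ends at 13338806. The motif TATAAA, searched on the strand of the gene, was in 3 of the 64 windows (4.69%) and in 8.32% of all promoters. These are counts of letters in a window, and no binding was measured there.

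The missing name did not mean a missing gene. When the first and last exons were compared with GENCODE vM21, an annotation of the same build, 138 of the 362 regions (38.1%) shared a splice site with an annotated transcript on their strand, and 14 more overlapped an annotated exon. Among these 152 regions, 85 held a protein coding gene, 45 a lincRNA and 18 a pseudogene. Of 84 protein coding genes found in this way, 42 had a symbol that no locus of any sample carried. Of all 21992 protein coding symbols in GENCODE, 3158 were carried by no locus. For all 152 regions the data go against the word unannotated, and they are called unnamed here. A further 18 regions lay inside or across a gene without touching an exon, 58 were antisense to a gene, 131 (36.2%) had no GENCODE gene on either strand, and 3 were on patch scaffolds that the annotation does not hold. No region held a miRNA hairpin on its strand. The build was checked with the named loci, of which 24761 of 24792 in wildtype cells (99.87%) overlapped the GENCODE gene of that name.

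**Figure D1:**
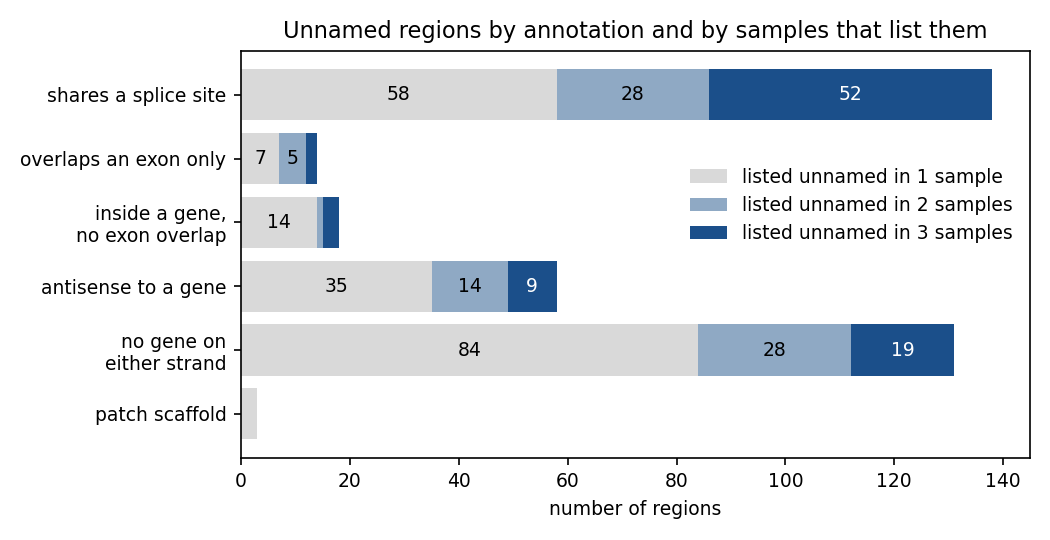
Horizontal bars give the number of regions in each class of overlap with GENCODE vM21, and the shades give how many of the 3 samples listed the region without a name. Regions that share a splice site with an annotated transcript have 52 of 138 in all 3 samples, and regions with no gene on either strand have 19 of 131.

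Of the 362 regions, 201 were listed without a name in a single sample. Only 85 of 362 (23.5%) were listed without a name in all 3 samples, whereas 61 were unnamed in wildtype cells alone, 42 in Pcgf1KO cells alone and 98 in rescued cells alone. A further 16 were unnamed in wildtype and Pcgf1KO cells, 39 in wildtype and rescued cells and 21 in Pcgf1KO and rescued cells. Some were listed elsewhere under a name: among regions of a single sample, 17 of wildtype, 9 of Pcgf1KO and 22 of rescued cells had a named locus on the same strand in another sample. The other 44, 33 and 76 had no locus on their strand in another sample. The median of the highest level was 4.35 FPKM for regions in all 3 samples, 0.792 for those in wildtype cells alone, 0.745 in Pcgf1KO cells alone and 0.628 in rescued cells alone. Of regions that shared an annotated splice site 37.7% were in all 3 samples, against 14.5% of those without a gene on either strand and 15.5% of antisense regions. On chromosome 13 lay 39 regions (10.8%), whereas the chromosome held 3.34% of the named loci, and chromosome 2 held 14 regions (3.87%) against 7.82% of the named loci.

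The unnamed loci were low but were less often silent in the lists than the named loci. Their median was 1.35 FPKM in wildtype, 1.52 in Pcgf1KO and 1.27 in rescued cells, and 118, 105 and 142 loci reached 1 FPKM. Between 14.9% and 22.9% were listed at 0 FPKM, against 45.9% to 49.0% of the named loci. The named loci include reference genes listed whether or not they had reads, while an unnamed locus exists only where an assembly was made, so these shares do not compare like with like. The unnamed loci were shorter, with a median span of 7053, 6631 and 6536 bases against 13896, 13843 and 13913 for named loci. A splicing event other than a start or an end was listed for 10.9% to 11.9% of them and for 37.2% to 37.4% of named loci.

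The cells had the markers of ES cells. Pou5f1, the pluripotency factor Oct4, was at 670, 518 and 626 FPKM in wildtype, Pcgf1KO and rescued cells, and of 8 ES cell markers measured in both wildtype and Pcgf1KO cells of 10 listed, only Klf4 was lower. Of the feeder fibroblast markers 14 of 18 were measured, with a median of 0.593, 0.432 and 0.939 FPKM, and Postn was at 0 in all 3 samples. Their sum was 63.9, 45.5 and 52.1 FPKM, of which Vim held 39.9, 31.9 and 29.3. Tagln, at 34.0 FPKM in wildtype, had no value under its own name elsewhere and is left out. Col1a1, Col1a2, Thy1 and Pdgfrb were lower in Pcgf1KO cells and none was higher, while 5.12% of all loci were lower and 2.21% higher. Col1a2 and Pdgfrb were under 1 FPKM throughout. Within 2-fold, Dcn and Twist1 rose and the other measured markers but Postn fell. Whether feeder RNA had a part in the levels below was not tested. Pcgf1 itself was at 14.0 FPKM in wildtype, 5.88 in Pcgf1KO and 7.86 in rescued cells, so Pcgf1 was lower and not absent in the library labelled Pcgf1KO. These values are the FPKM listed for first and last exon events. They do not measure the edited exons alone and do not check the deletion. Of the 10 genes of the PRC1.1 list, 7 were measured in all 3 samples, and of these Pcgf1 was the only gene past 2-fold between wildtype and Pcgf1KO cells.

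Of the 10 highest regions found in all 3 samples, 8 were known genes. Nt5dc2, which encodes a protein of the 5′-nucleotidase domain family, lay at chr14:31131129-31139121 and was at 125 FPKM in wildtype, 97.6 in Pcgf1KO and 120 in rescued cells. Tfdp1, the dimerization partner of E2F transcription factors (chr8:13338734-13377881), was at 99.6, 95.8 and 96.5 FPKM by its last exons and at 99.6, 16.9 and 96.5 FPKM by its first exons. Dppa2, a pluripotency-associated chromatin factor (chr16:48303932-48319144), was at 67.0, 77.2 and 76.7 FPKM by its last exons and at 11.8, 77.2 and 9.98 FPKM by its first exons. In these 3 genes the samples lay within 2-fold by last exons, while by first exons Pcgf1KO cells were more than 2-fold lower for Tfdp1 and higher for Dppa2. For Dppa2 the first exons were not the same. The one of wildtype and rescued cells lay at 48308420-48308480, and those of Pcgf1KO cells lay elsewhere. Fbxo15, an F-box protein gene long used as an ES cell reporter, was at 41.8, 30.5 and 59.0 FPKM. Zmym2, a zinc finger gene of a chromatin complex, was at 14.0, 14.7 and 13.9 FPKM. The lincRNA Eprn (chr13:73344721-73347663) was lowest in wildtype cells and highest in rescued cells, at 12.7, 17.1 and 24.7 FPKM. Saa3, an acute phase serum amyloid gene, was at 13.2, 15.0 and 16.5 FPKM, and the lincRNA Gm33301 at 17.0, 15.4 and 12.9 FPKM. All of these shared splice sites with GENCODE transcripts, and all stayed within 2-fold between wildtype and Pcgf1KO cells when the larger of the first and last exon sums was used. With FPKM multiplied by the length of the first and last exons, the log2 ratio of Pcgf1KO to wildtype was -3.09 for Tfdp1, -1.24 for Saa3, -1.04 for Gm33301 and 1.15 for Dppa2. That product leaves out internal exons and moves with the assembled ends. The last exon of Tfdp1 held 659 bases in wildtype and 26 in Pcgf1KO cells. Saa3 had a first exon of 439 bases in wildtype cells alone.

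In other known genes the name was lost in some samples only. Cdc37, a kinase co-chaperone of Hsp90, was unnamed in wildtype and rescued cells at 173 and 157 FPKM and named in Pcgf1KO cells at 189 FPKM. Cfdp1 was unnamed in wildtype and Pcgf1KO cells at 158 and 146 FPKM and named in rescued cells at 170 FPKM. Trh, which encodes thyrotropin releasing hormone, was unnamed in wildtype cells at 66.6 FPKM and named in Pcgf1KO cells at 32.8 and in rescued cells at 62.6 FPKM. Krt17, a type I keratin gene, was unnamed in Pcgf1KO cells at 118 FPKM and named in rescued cells at 80.1 FPKM. Mrpl36, a mitochondrial ribosomal protein gene, was unnamed in rescued cells alone at 46.4 FPKM, with named values of 48.4 in wildtype and 44.9 in Pcgf1KO cells. For Cdc37, Cfdp1 and Mrpl36, presence in the unnamed class in 1 sample and absence in another went with levels within 2-fold of each other. For Trh, wildtype and Pcgf1KO cells differed by slightly more than 2-fold.

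The first comparison asked which unnamed regions differed after loss of Pcgf1. Of 101 regions unnamed in both samples, 10 were lower in Pcgf1KO than in wildtype cells (9.9%) and 11 were higher (10.9%), while 5.12% of all 26718 loci compared were lower and 2.21% were higher. With at least 1 FPKM in either sample, 10 of 81 regions were lower and 9 were higher, against 6.16% and 3.06% of all loci. The median log2 ratio was -0.157 for the unnamed regions and -0.119 for the named loci. A further 11 regions were at 0 FPKM in both samples, and 4 of the called regions were at 0 in wildtype cells. By class, 3 lower and 6 higher regions were among 60 that shared an annotated splice site, 5 lower and 3 higher among 23 without a gene on either strand, and 2 lower and 0 higher among 11 antisense regions.

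**Figure D2:**
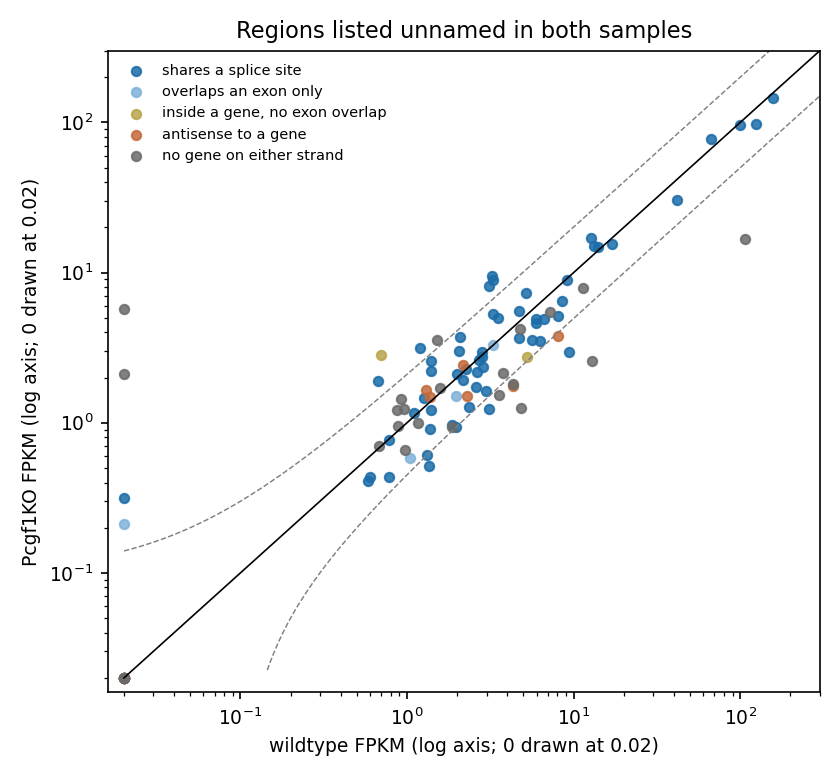
Each point is a region listed without a name in both wildtype and Pcgf1KO cells, with wildtype FPKM on the x axis and Pcgf1KO FPKM on the y axis (both log axes) and colour for the GENCODE class. The solid line marks equal values and the dashed lines a 2-fold difference of FPKM plus 0.1; 10 of 101 regions lie below the band and 11 above it.

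Among the decreased regions the level and, in FPKM as deposited, the size of the difference were largest at Gm40003, a gene that RefSeq places there and GENCODE vM21 does not. The region (chr2:170670972-170673839, minus strand) was at 107 FPKM in wildtype, 16.8 in Pcgf1KO and 31.7 in rescued cells. Wildtype stood far above the other samples, and the log2 ratio of Pcgf1KO to wildtype was -2.67. Both splice sites, at 170673729 and 170671218, were the same in all 3 samples. The assembled exons were not: the first and last exon held 91 and 57 bases in wildtype, 105 and 242 in Pcgf1KO and 111 and 247 in rescued cells. FPKM is divided by transcript length, and when each value was multiplied by the length of both exons the wildtype value was 2.72 times the Pcgf1KO value instead of 6.38 times. On that product the log2 ratio was -1.43, smaller in size than that of 2410003I16Rik (-2.84), Tsga10ip (-2.67), the chr11 minus-strand region (-2.33) and Got1l1 (-1.67), which are described next. Of these, 2410003I16Rik and Tsga10ip did not keep both splice sites between wildtype and Pcgf1KO cells, and the chr11 region came from joined loci. The product also leaves out internal exons, so it does not rank the regions by their decrease. In rescued cells the first exon began at 170673839, the last base of the Gm40003 sequence above. The nearest coding gene, Dok5, lies 57968 bases away and was under 0.1 FPKM in every sample.

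Got1l1, which encodes a protein related to aspartate aminotransferase (chr8:27197460-27223831, minus strand), was at 9.36 FPKM in wildtype, 2.94 in Pcgf1KO and 5.59 in rescued cells. Its log2 ratio of Pcgf1KO to wildtype was -1.64, the rescued cells lay between the other samples, and the summed length of first and last exons was 366, 342 and 342 bases. The nearby coding gene Adrb3, a beta adrenergic receptor gene at a distance of 1945 bases, was at 11.3, 9.76 and 16.4 FPKM and within 2-fold. Of the 11 antisense regions 2 were lower, with a median log2 ratio of -0.231 over the class. The antisense region of Ext1, a heparan sulfate polymerase gene (chr15:53173760-53180407, plus strand), was at 8.03, 3.76 and 4.36 FPKM, with Ext1 itself at 21.8, 17.1 and 14.0. The antisense region of Glyatl3, an acyltransferase gene (chr17:40904999-40913224, plus strand), was at 4.35, 1.76 and 3.26 FPKM, and Glyatl3 was at 2.35 in wildtype, listed at 0 in Pcgf1KO and at 1.62 in rescued cells. With a pseudocount of 1 FPKM both came within 2-fold, at log2 ratios of -0.93 for the Ext1 region and -0.96 for the Glyatl3 region, and the Ext1 region did so also with FPKM multiplied by end exon length (-0.95). The library kit named for these samples does not mark strand, so exonic reads of a gene and its antisense partner cannot be told apart.

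In the next 5 decreased regions the values of all 3 samples are given side by side; both ratios of each region share the Pcgf1KO library. The region 1460 bases from Cd9, a tetraspanin gene (chr6:125432676-125458806, plus strand), was at 4.34, 1.82 and 5.03 FPKM in wildtype, Pcgf1KO and rescued cells, while Cd9 was at 188, 242 and 150 FPKM. The lincRNA 2410003I16Rik (chr16:94010791-94016348) was at 3.11, 1.24 and 6.82 FPKM, and Tsga10ip (chr19:5389820-5401143) at 1.35, 0.516 and 2.23 FPKM. In all 3 of these the Pcgf1KO value was the lowest and the rescued value the highest. None of them kept both a first and a last splice site between wildtype and Pcgf1KO cells: the last exon of 2410003I16Rik held 587 bases in wildtype, 35 in Pcgf1KO and 724 in rescued cells. The fourth, chr11:121925582-121935663 on the plus strand with no gene on either strand, was at 3.56, 1.54 and 4.36 FPKM and kept the same splice sites, at 121925726 and 121934908, in all 3 samples. Its first and last exons summed to 575, 901 and 588 bases, and with FPKM multiplied by that length the log2 ratio of Pcgf1KO to wildtype was -0.53 instead of -1.16, within 2-fold. For the region near Cd9 it was -0.69 instead of -1.21.

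The fifth region, on the minus strand at chr11:121901696-121956757, came from the joining of loci. Wildtype cells held 2 loci there, at 1.98 FPKM (121904554-121925331) and 10.9 FPKM (121941316-121956757), and both were joined through a Pcgf1KO first exon at 0 FPKM. At the first exon that ends at 121925230 in all 3 samples, in the RefSeq promoter window of Gm9631, the values were 1.98, 2.59 and 11.3 FPKM, so wildtype and Pcgf1KO cells were within 2-fold there and rescued cells stood above both by first exons. By last exons the order turned, since the rescued last exon was listed at 0 FPKM against 2.59 in Pcgf1KO cells. It lay inside the Pcgf1KO last exon and had another splice site. The remaining decreased region, with its start in the window of C330020E22Rik (chr4:129382460-129404318), was at 4.86, 1.26 and 2.28 FPKM. Its wildtype first and last exons held 25 and 68 bases, against 469 and 1142 in Pcgf1KO cells, and the last exons lay at different places. With FPKM multiplied by end exon length the direction turned, to a log2 ratio of 1.94.

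Among the increased regions, Exoc3l2, a gene related to the exocyst subunit Exoc3, was found in 2 regions. The first (chr7:19463133-19474030, plus strand) was at 3.24 FPKM in wildtype, 9.46 in Pcgf1KO and 4.30 in rescued cells, a log2 ratio of 1.52 between Pcgf1KO and wildtype. Only the Pcgf1KO cells stood apart, and part of their value came from an added first exon at 19464881-19464931 with 3.53 FPKM. At the first exon that ends at 19463353 in all samples the values were 3.24, 5.93 and 4.30 FPKM, within 2-fold. The second region (chr7:19474358-19496760) was at 3.30, 5.29 and 3.22 FPKM, also highest in Pcgf1KO cells, and was within 2-fold. The lincRNA Gm32885 (chr15:97156847-97167268, minus strand) was at 3.29, 8.95 and 14.0 FPKM, so that rescued cells were above Pcgf1KO cells and both were above wildtype. Its splice site at 97167177 was the same in all samples, and the lengths of its first exon were 92, 74 and 73 bases. The last exon with the splice site at 97161395 was at 3.29, 2.64 and 4.51 FPKM, within 2-fold. Another last exon, with its splice site at 97157249, was at 6.30 FPKM in Pcgf1KO and 9.52 in rescued cells and was not listed in wildtype.

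Zinc finger genes, many of which encode repressors of repeats, were in 9 of the regions, 7 of them in all 3 samples. Of 8 that could be compared, 1 was higher in Pcgf1KO cells and none was lower. The region that spans Zfp53 and Zfp52 (chr17:21488969-21563393) was at 3.12, 8.18 and 1.73 FPKM. It held 1 locus in wildtype, 3 in Pcgf1KO and 2 in rescued cells, and the first exon that ends at 21489265 was at 3.12 FPKM in wildtype and 6.00 in Pcgf1KO cells, within 2-fold. Zfp870 was at 2.07, 3.71 and 1.98 FPKM, Zfp445 at 5.17, 7.32 and 8.15 FPKM, and Zfp647 at 5.65, 3.54 and 2.86 FPKM, each within 2-fold of wildtype in Pcgf1KO cells. These genes belong to families of close copies, so reads may have been divided among them.

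Other increased regions were low. The region inside the antisense gene Gm48715 (chr12:38045852-38048036) was at 0.696, 2.81 and 2.92 FPKM, with first and last exons that summed to 1360, 374 and 675 bases. With FPKM multiplied by that length its log2 ratio of Pcgf1KO to wildtype was 0.14 instead of 1.87, within 2-fold. Among the regions present in 2 of the samples, Klf12, a Krüppel-like transcription factor gene, was at 0.667 FPKM in wildtype and 1.89 in Pcgf1KO cells. Gm45521 was at 1.39, 2.58 and 2.59 FPKM and the lincRNA Gm48412 at 1.39, 2.22 and 6.93 FPKM, both within 2-fold between wildtype and Pcgf1KO cells. The last exon of Gm48412 held 2180, 1924 and 33 bases, with a different splice site in each sample. In Pcgf1KO cells it was at 0.867 FPKM. Near Cabp1 (chr5:115203904-115205897) the values were 0.921, 1.43 and 1.99 FPKM. At 7534 bases from Lefty2, a Nodal antagonist, a region (chr1:180877463-180885574, minus strand) was listed at 0 in wildtype, at 5.69 FPKM in Pcgf1KO and at 0 in rescued cells. Its first exon lay at 180885424-180885574 in Pcgf1KO cells and at 180882512 onwards in the other samples, so different transcripts were listed. The region chr1:11385285-11401068 was likewise listed at 0, 2.13 and 0 FPKM.

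**Figure D3:**
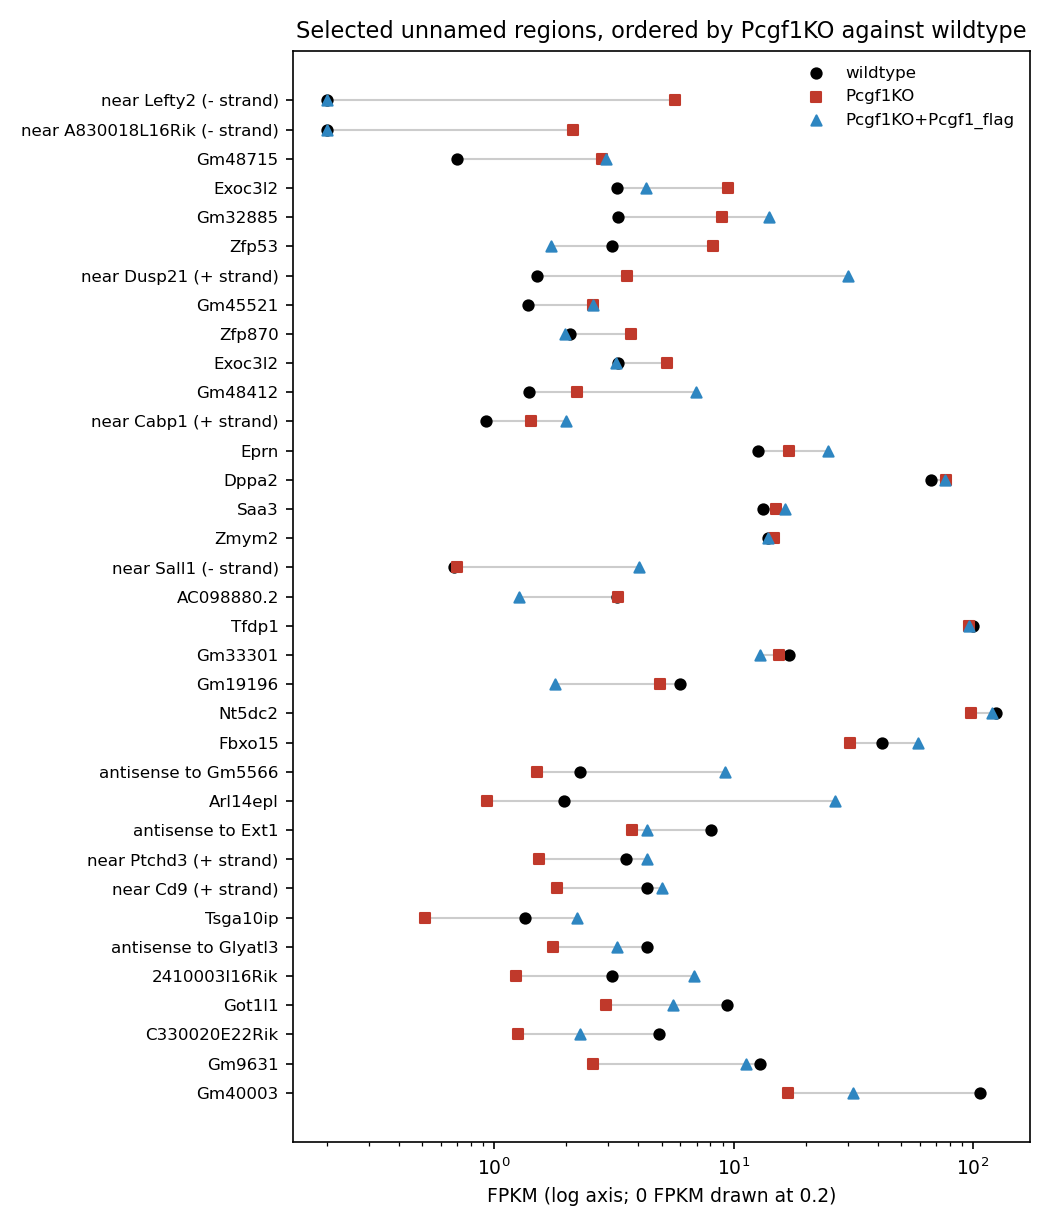
Points give the FPKM (log axis) of the 35 selected regions in wildtype (circle), Pcgf1KO (square) and rescued cells (triangle), 1 library each, from the most increased region in Pcgf1KO cells at the top to the most decreased at the bottom. Grey lines span the lowest and highest sample, and regions without a gene are labelled by the nearest coding gene; values are the larger of the first and last exon sums, by which Tfdp1, Dppa2 and Nt5dc2 lie close together at the right while Gm40003 spans 16.8 to 107 FPKM.

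The second comparison asked what re-expression of Pcgf1 did to the same class. It uses the same Pcgf1KO library as the first, so the values of both were not set against each other as separate evidence. Of 106 regions unnamed in both samples, 11 were lower in rescued than in Pcgf1KO cells (10.4%) and 18 were higher (17.0%), while 2.31% of all 26712 loci compared were lower and 6.42% were higher. With at least 1 FPKM in either sample, 9 of 89 regions were lower and 18 were higher, against 3.68% and 7.22% of all loci. The median log2 ratio was 0.196 for the unnamed regions and 0.049 for the named loci. Of the called regions 7 were at 0 FPKM in 1 of the samples. Among the 28 regions without a gene on either strand, 8 were higher and 4 lower, with a median of 0.531, and among 57 that shared an annotated splice site 8 were higher and 5 lower, with a median of 0.105.

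The largest increase was at Arl14epl, a gene named for its likeness to an Arl14 effector, which was at 1.96 FPKM in wildtype, 0.936 in Pcgf1KO and 26.6 in rescued cells, a log2 ratio of 4.69 between rescued and Pcgf1KO cells. The last exon held 1817 bases in wildtype and Pcgf1KO cells and 262 in rescued cells, and by first exons alone the rescued value was 8.82 FPKM. The region chrX:18048842-18090929 (plus strand), without a gene on either strand, was at 1.51, 3.58 and 29.9 FPKM. All samples shared the splice site at 18049167, while the last exon held 22 bases in rescued cells against 414 in wildtype cells. For both, the assembled model was shortest where the level was highest.

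The region antisense to the pseudogene Gm5566 (chr5:149661066-149664906, plus strand) was at 2.29, 1.503 and 9.20 FPKM, with both splice sites, 149661203 and 149663447, alike and end exons of nearly equal length, 1571, 1580 and 1561 bases. Rescued cells alone stood apart there, with a log2 ratio of 2.54. Its nearest coding gene, B3glct, was at 14.1, 8.46 and 7.68 FPKM. Ubd, a ubiquitin-like gene also known as Fat10 (chr17:37193162-37196095), was at 8.47, 6.49 and 14.1 FPKM. Rad51b, a homologous recombination gene (chr12:79657832-79814383), was at 6.31, 3.53 and 7.83 FPKM. Beside Sall1, a zinc finger gene of pluripotent cells at 862 bases, a region (chr8:89045024-89053481, minus strand) was at 0.682, 0.701 and 4.02 FPKM, while Sall1 was at 31.8, 27.5 and 22.6. Its models differed, with first exons of 601, 536 and 349 bases and a Pcgf1KO last exon at another place. Near Enah, an actin regulator gene, the region chr1:182020202-182029917 began 212 bases from a start on the other strand and was at 3.75, 2.16 and 5.22 FPKM, with Enah at 97.9, 56.2 and 95.0 FPKM.

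The decreased regions in rescued cells included the Zfp53 and Zfp52 region, the first Exoc3l2 region and both regions on chromosome 1 described above. The Zfp53 and Zfp52 region was joined. Its loci that shared a last splice site were at 0.511 and 1.67 FPKM in Pcgf1KO and 0.429 and 1.30 in rescued cells. These were within 2-fold. The Pcgf1KO locus at 21488993-21522657, at 6.00 FPKM, overlapped the rescued locus at 21517112-21532324 but shared no first or last splice site with it. The pseudogene Gm19196 (chr12:21542646-21554661) was at 5.96, 4.92 and 1.80 FPKM, with end exons of 227, 325 and 822 bases. The region over AC098880.2 (chr17:22710463-22739999, minus strand) was at 3.26, 3.30 and 1.27 FPKM, with end exons of 5806, 5795 and 5807 bases and the splice sites unchanged. In this region wildtype and Pcgf1KO cells lay together and rescued cells below both, with a log2 ratio of -1.32 between rescued and Pcgf1KO cells.

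Rescued and wildtype cells were compared to ask which regions returned to the wildtype level. Of 124 regions unnamed in both, 11 were lower in rescued cells (8.87%) and 15 were higher (12.1%), against 2.48% and 4.01% of all 26725 loci, and the median log2 ratio was -0.012 (named loci -0.073). With at least 1 FPKM in either sample, 9 of 95 regions were lower and 13 were higher, against 2.85% and 3.84% of all loci. Among the 85 regions of all 3 samples, 53 were within 2-fold in every comparison, 9 were at 0 FPKM throughout, and the median ratio of highest to lowest sample was 1.88 over the 73 above 0 everywhere. The Pcgf1KO value was the lowest of the 3 in 33 of the 73 regions and the highest in 10. Wildtype was lowest in 18 and highest in 31, and rescued cells were lowest in 22 and highest in 32. These ranks were not counted over named loci. Over all loci, 5.12% were lower and 2.21% higher in Pcgf1KO than in wildtype cells. In rescued against Pcgf1KO cells 2.31% were lower and 6.42% higher.

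The regions were not assembled alike in the 3 samples, and this moved with the levels. None of the 85 regions had the same start and end in all samples. Of the 101 regions compared between Pcgf1KO and wildtype cells, 75 shared both a first and a last splice site, and 12 of these were called, against 9 of the other 26. Where first and last exons summed to lengths within 1.5-fold, 13 of 74 regions were called (17.6%), and beyond 1.5-fold 8 of 27 (29.6%). For rescued against Pcgf1KO cells the shares were 12 of 74 (16.2%) and 17 of 32 (53.1%), and for rescued against wildtype cells 11 of 82 (13.4%) and 15 of 42 (35.7%). Among regions above 0 FPKM in both samples, the Spearman correlation of the log2 FPKM ratio with the log2 length ratio was -0.256 over 86 regions, -0.234 over 89 and -0.389 over 102, in the same order. It is a correlation across regions that share their libraries, and it was 0.056, 0.056 and 0.051 across named loci. Between Pcgf1KO and wildtype cells the summed end exons were of identical length in 67.4% of named loci and within 1.5-fold in 93.2%, whereas the latter share was 73.3% for unnamed regions. The part of assembled length in the differences above was not tested with counts.

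**Figure D4:**
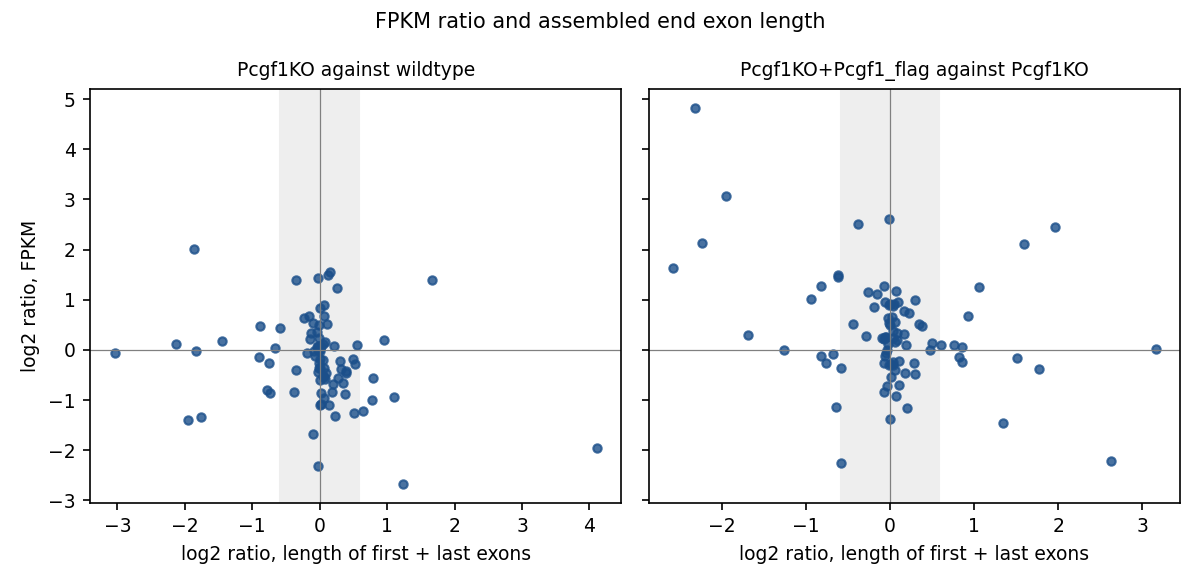
Each point is a region above 0 FPKM in both samples of a comparison, with the log2 ratio of the summed length of first and last exons on the x axis and the log2 ratio of FPKM on the y axis. The grey band marks lengths within 1.5-fold, where 17.6% of regions were called for Pcgf1KO against wildtype (left) and 16.2% for rescued against Pcgf1KO cells (right), against 29.6% and 53.1% outside it when regions at 0 FPKM are counted too.

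With both splice sites shared and end exons within 1.5-fold, 58 regions remained between Pcgf1KO and wildtype cells, of which 8 were called. They were the antisense regions of Ext1 and Glyatl3, Got1l1 and the chr11 minus-strand region on the lower side, and Exoc3l2, Gm32885, Klf12 and the chrX region on the higher side. The chr11 region is the joined region above, and at the first exon shared by all samples Exoc3l2 was within 2-fold (3.24 and 5.93 FPKM). Gm32885 was past 2-fold by its first exon and within 2-fold by the last exon shared by all samples (3.29 and 2.64 FPKM). Between rescued and Pcgf1KO cells 60 regions remained and 7 were called: the antisense region of Gm5566, Rad51b, Ubd and the region near Enah were higher, and the Zfp53 and Zfp52 region, AC098880.2 and the lincRNA Gm36899, at 8.41 and 3.80 FPKM, were lower. The Zfp53 and Zfp52 region is the joined region above, whose loci that shared a last splice site were within 2-fold.

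The highest values of the class were in loci of a single sample. A locus of rescued cells at chr16:57113044-57391682 was listed at 318520 FPKM, with a first exon of 18 bases. In wildtype cells, chr9:56223569-56223887 was listed at 23058 FPKM with exons of 174 and 51 bases, and chr10:45875286-45875662, over the pseudogene Gpx4-ps2, at 22038 FPKM with exons of 158 and 42 bases. The highest named locus was at 6337 FPKM in rescued and 7334 in wildtype cells. These 3 loci entered no fold comparison. Regions without a gene on their strand seldom began near a start on the other strand: 15 of 189 (7.94%) did so within 1000 bases, against 17.9% of named loci in wildtype cells.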

How the data were processed

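RNA-seq of ES cells of 3 genotypes, 1 library each, was analysed. Per the labels, poly-A RNA was made into libraries with a NEBNext Ultra kit. The submitters' processing notes name TopHat2 2.0.12, Cufflinks 2.2.1, HTSeq 0.6.0 and the build mm10. The files deposited for the 3 samples list first exons, last exons and splicing events of assembled transcripts, each event with its FPKM as the authors computed it. Which program wrote them is not given in the sources used here. They have the form of Cufflinks and ASprofile output. There are no counts, so depth is unknown and no count test was run.

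The level of a locus was the larger of its summed first-exon (TSS) and last-exon (TTS) FPKM. Unnamed loci that overlapped by at least 1 base on the same chromosome and strand were joined, and the loci of a sample in a region were summed. Ratios were taken on FPKM plus 0.1 and called above 2-fold. With 1 sample a group no test was possible. The calling and matching steps were tested on simulated data.

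The regions named in the text are those matched in all 3 samples with the 10 highest means, the 10 most decreased and the 10 most increased in Pcgf1KO cells, those at 0 in 1 of the samples, and the 5 most decreased and 5 most increased in rescued cells. Other names were chosen after their values were seen. The members and the lists were chosen with earlier results of these data known. Exon lengths and shared splice sites were compared after the values were seen. GENCODE vM21 and RefSeq promoters (GRCm38.p6) gave the annotation. Python 3.11.15, numpy 2.4.6, pandas 2.3.3 and scipy 1.17.1 were used.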

Additional observations from a re-analysis of the deposited data

Results flagged for a closer look

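The fold comparisons use regions without a name in both samples, and these are signals outside them. In Pcgf1KO cells 22 regions of at least 1 FPKM, and in rescued cells 38, had no locus on their strand in wildtype cells. Among the regions listed without a name in rescued cells alone, the highest values were 318520 FPKM at chr16:57113044-57391682 and 128.9 FPKM at chrX:101695860-101699739, in the RefSeq promoter window of Gm52429. In Pcgf1KO cells the highest region without a locus in the other samples was chr12:19301246-19308995, over exons of Gm10479, at 8.76 FPKM. With 1 library each, these values have no replicate.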

How the results depend on the processing

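No paired analysis was possible because each genotype has 1 sample, and for the same reason no sample could be left out. The counts of regions past 2-fold were 21 for Pcgf1KO against wildtype, 29 for rescued against Pcgf1KO and 26 for rescued against wildtype cells. In that order, they were 149, 170 and 169 with regions not listed in a sample set to 0 FPKM, and, among settings chosen after seeing the data, 34, 46 and 47 with a named counterpart used, 12, 13 and 14 with both splice sites shared, and 13, 12 and 11 with end exons within 1.5-fold. A pseudocount of 1 FPKM gave 10 for the first and 14 for the third. Identical starts and ends left only regions of the second comparison, with 0 called; that setting could not be run for the others. These settings change which regions are compared; the cause of the pseudocount's effect was not tested. The other settings kept all 3 counts within 1.5 times. The median log2 ratios were -0.114, 0.144 and -0.01 with a pseudocount of 1 FPKM and -0.092, 0.251 and 0.11 with median-of-ratios scaling, so the third changed sign. Of 17 named regions beyond 2-fold between Pcgf1KO and wildtype cells, 7 came within it with a pseudocount of 1 FPKM and 4 with FPKM multiplied by end exon length, where C330020E22Rik reversed to 1.94. That product leaves out internal exons. Depth is unknown, so counting error could not be given.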
